A study of Drosophila melanogaster with 3 samples.

Results

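The intergenic peaks of the embryonic protein CG12104 are the regions of its reproducible peak set that lie away from genes. A peak was a member when its summit, the base of highest enrichment, lay more than 500 bp from the transcription start site (TSS) of every protein-coding gene and outside every annotated gene of any biotype. Of the 4060 peaks that the authors selected by the irreproducible discovery rate (IDR), 480 met this rule, a share of 11.8% (95% Wilson interval 10.9 to 12.9, counting error only). The others were classed by summit as promoter (2040), intron (1409) or exon (131). The data come from chromatin immunoprecipitation and sequencing (ChIP-seq) of whole *Drosophila melanogaster* embryos, 0 to 24 h old and of both sexes. The embryos belonged to a single transgenic line that makes CG12104 fused to GFP, and an anti-GFP antibody was used. There is 1 group, with 3 biological replicates, and no second genotype, treatment or stage, so what is compared here is replicates, classes of site and stretches of sequence. The sources used here do not state which promoter drives the fusion protein, and untagged embryos were not analysed here. Whole embryos mix all tissues and stages, so a site bound in few cells and a site bound weakly in many cannot be told apart.

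CG12104 is placed with the HMG-box genes, a family whose DNA-binding domain fits into the minor groove and bends DNA. Its Sox members read short words around AACAAT. Sequence between genes holds enhancers that act on promoters at a distance, insulators, start sites of noncoding RNAs and Polycomb response elements, which recruit the Polycomb proteins that keep developmental genes silent. In the compact fly genome much of this sequence lies around developmental genes. The nearest gene need not be the one an element acts on, so gene names below give positions.

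The sequence of 3 of the strongest intergenic peaks shows what a summit looks like. Each run covers 100 bp to each side of the summit in dm6, read from NCBI Release 6, and capitals mark every stretch of 6 or more bases made only of A and T. The first lies 111 bp from the start of the noncoding gene *lncRNA:CR31044*, the second in the gap upstream of *chinmo* and the third between *C15* and *sp3*.
eEF1gamma peak, chr3R:29214351-29214551, plus strand: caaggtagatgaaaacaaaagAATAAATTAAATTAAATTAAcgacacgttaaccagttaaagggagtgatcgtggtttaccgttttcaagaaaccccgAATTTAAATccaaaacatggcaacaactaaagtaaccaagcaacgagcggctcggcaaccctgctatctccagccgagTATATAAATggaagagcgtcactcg
chinmo peak, chr2L:1638685-1638885, plus strand: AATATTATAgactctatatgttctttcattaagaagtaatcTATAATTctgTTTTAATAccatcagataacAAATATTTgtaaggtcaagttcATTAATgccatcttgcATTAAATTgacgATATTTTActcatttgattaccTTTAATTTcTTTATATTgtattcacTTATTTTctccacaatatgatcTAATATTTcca
sp3 peak, chr3R:21520272-21520472, plus strand: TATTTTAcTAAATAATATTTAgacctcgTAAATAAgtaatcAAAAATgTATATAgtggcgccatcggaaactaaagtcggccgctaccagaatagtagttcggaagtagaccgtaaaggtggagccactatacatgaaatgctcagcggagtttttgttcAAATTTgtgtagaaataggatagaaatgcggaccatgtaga
The GC content of these windows was 40.3%, 23.9% and 37.3%. The *chinmo* window has 85 bases in such stretches, and the other windows have 38 and 45.

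A short word recurs beside many intergenic summits and is shown in 5 further peaks. The word is CAGTGNA, and the peaks are, among those on the arms printed here, the strongest in which it follows a stretch with C or T at 8 or more of 10 bases. Capitals mark those 10 bases and the word, and each run is printed on the strand on which the word reads CAGTGNA.
CG3149 peak, chrX:5696449-5696649, plus strand: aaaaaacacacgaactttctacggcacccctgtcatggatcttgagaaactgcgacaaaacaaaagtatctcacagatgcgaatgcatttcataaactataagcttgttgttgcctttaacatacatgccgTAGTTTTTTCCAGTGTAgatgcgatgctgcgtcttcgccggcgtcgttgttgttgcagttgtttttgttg
CG9300 peak, chr3L:19560711-19560911, minus strand: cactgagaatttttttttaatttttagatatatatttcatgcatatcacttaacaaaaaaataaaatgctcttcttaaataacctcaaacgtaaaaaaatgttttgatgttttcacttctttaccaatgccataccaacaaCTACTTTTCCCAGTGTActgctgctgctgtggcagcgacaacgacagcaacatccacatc
slp2 peak, chr2L:3832432-3832632, plus strand: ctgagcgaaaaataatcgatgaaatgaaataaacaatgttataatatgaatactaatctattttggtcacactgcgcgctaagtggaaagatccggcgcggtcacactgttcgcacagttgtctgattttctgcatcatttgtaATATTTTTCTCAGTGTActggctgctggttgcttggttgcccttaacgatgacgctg
CG43131 peak, chr3R:5113163-5113363, minus strand: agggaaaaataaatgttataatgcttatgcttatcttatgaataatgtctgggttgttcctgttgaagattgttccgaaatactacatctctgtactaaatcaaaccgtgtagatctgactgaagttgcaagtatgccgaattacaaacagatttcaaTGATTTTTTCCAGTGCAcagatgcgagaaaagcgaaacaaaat
CG43245 peak, chr3L:10769720-10769920, minus strand: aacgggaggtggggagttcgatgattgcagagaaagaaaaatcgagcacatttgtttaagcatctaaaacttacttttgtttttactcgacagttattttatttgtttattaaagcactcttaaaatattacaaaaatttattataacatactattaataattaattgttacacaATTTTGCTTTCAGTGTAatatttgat
The pooled signals of these peaks were 508, 438, 413, 409 and 299 in the order shown. The *slp2* peak lies between the paired forkhead genes *slp1* and *slp2*, which pattern the segments. All 5 have the word to the right of the summit on the printed strand, so that the C and T stretch lies between the summit and the word.

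The intergenic peaks were close to intron peaks in signal and below promoter peaks, mostly in replicate 1. Signal is an enrichment value from the authors' peak caller that is not scaled between lists, so ratios were taken within a replicate. The median signal of the intergenic peaks was 59.8 in replicate 1, 69.5 in replicate 2 and 34.5 in replicate 3. Divided by the median of intron peaks this gave 0.969, 0.986 and 0.988, a mean of 0.981 ± 0.0107 (SD, n = 3). Against promoter peaks the ratios were 0.750, 0.900 and 0.966, a mean of 0.872 ± 0.111 (SD, n = 3). All 6 ratios lay below 1, and in each comparison the exact two-sided sign permutation test gave p = 0.25, the smallest that 3 replicates allow. In the pooled list the median was 155 (quartiles 124 and 211), beside 159 for intron and 179 for promoter peaks, and 42.1% of the members were among the 2030 strongest IDR peaks.

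Most members were found in every replicate, and replicate 1 held the fewest. Among the 4060 strongest regions of each replicate's own list, 353 members overlapped one in replicate 1 (73.5%), 439 in replicate 2 (91.5%) and 410 in replicate 3 (85.4%). Among promoter peaks replicate 1 held the most, with 90.5%, beside 87.5% and 82.2%. All 3 replicates held 296 members, or 61.7% (Wilson interval 57.2 to 65.9), against 66.4% of all IDR peaks, 63.2% of intron peaks and 69.9% of promoter peaks. A further 84 members were in replicates 2 and 3 but not in 1, while 20 missed only replicate 2 and 27 missed only replicate 3. When the 4060 strongest regions of each replicate were classed directly, 413, 540 and 537 were intergenic in replicates 1, 2 and 3, a share of 12.2% ± 1.79 (SD, n = 3). Across members, which share the libraries and are not independent, signal correlated between replicates with a Spearman rho of 0.640 for 1 and 2, 0.633 for 1 and 3, and 0.720 for 2 and 3. The Pearson r of log2 signal was 0.761, 0.728 and 0.791 in the same order.

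Intergenic regions were common among weak candidates and rarer among strong ones. The pooled list held 26959 candidate regions, of which 15.1% were in the IDR set. Of its 5273 intergenic candidates 480 were, or 9.10%, beside 12.6% of intron, 28.7% of promoter and 3.91% of exon candidates. By pooled rank, intergenic regions made up 9.95% of ranks 1 to 2030, 13.7% of ranks 2031 to 4060, and 22.8% of ranks 16241 to 26959.

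The 15 strongest intergenic peaks had pooled signals from 590 to 1040 and ranked between 19 and 233 in each replicate. All 15 were among the strongest 4060 regions in all 3 replicates, which their choice by a signal pooled from these replicates favours. Of these peaks 5 lie on 2R, 3 of them around *Psc* and *Su(z)2*, neighbouring genes that encode related subunits of Polycomb repressive complexes. The strongest, at chr2R:13035187-13035480, lies between *Su(z)2* and CG13323, 11970 bp from the CG13323 TSS. Its signal was 330, 456 and 253 in replicates 1, 2 and 3, with ranks of 39, 26 and 19. The peak at chr2R:12985064-12985356, 4215 bp from the *Psc* TSS and 158 bp from the start of *lncRNA:CR44339*, had a pooled signal of 936. Its ranks of 33, 39 and 38 were nearly the same in every replicate. The third, between CG13321 and *Psc*, had 611, with ranks of 105, 190 and 154.

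Among the other peaks of this group, 2 lie upstream of *chinmo*, which encodes a BTB zinc finger protein of neuronal temporal identity. Their pooled signals were 942 and 723, and the first ranked 23, 41 and 42 in replicates 1, 2 and 3. The peak printed first above, 5721 bp from the TSS of the translation factor gene *eEF1gamma*, had 945. Its signal was 332, 386 and 218. A peak 1260 bp from *bin*, the FoxF gene of the visceral mesoderm, had 590, and one between *ph-d* and *ph-p*, the duplicated polyhomeotic genes of the Polycomb group, had 623. Because *ph-d* and *ph-p* are near copies, reads there may be shared between them, and the sources used here do not state how such reads were placed. The remaining peaks lie between *blw* and the cyclin gene *CycB* (770), between *C15* and *sp3* (761), beside the junctophilin gene *jp* (732) and between *COX7AL2* and CG31668 (673). Others lie between *Sol1* and *Cyp9f2* with *DNAlig3* nearest (667), by *Uhg4* with *Boot* nearest (636), and between *NijA* and CG43245 (593).

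The *C15* and *sp3* peak differed most between replicates in this group, with a rank of 180 in replicate 1 against 52 and 32 in the others. In the plot of the 15 peaks every replicate value was above the median of all IDR peaks. The peaks were picked by pooled signal, which rests on the same 3 replicates, so this is no separate evidence of agreement. The folds ran from 2.86 to 5.27 in replicate 1, 3.25 to 6.24 in replicate 2 and 2.95 to 7.18 in replicate 3.

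**Figure D1:**
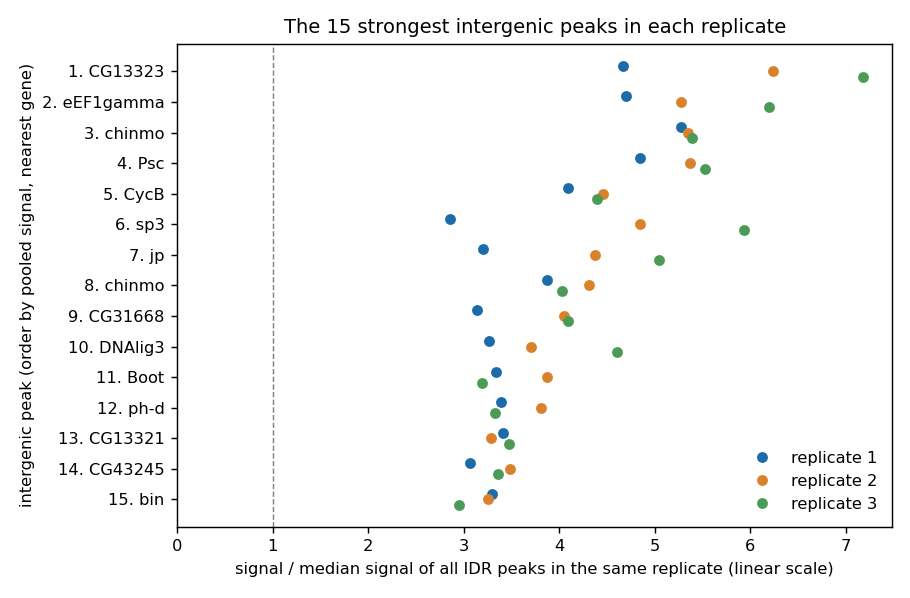
Signal of the 15 strongest intergenic peaks in each replicate (points), divided by the median signal of all IDR peaks in that replicate (horizontal axis, linear), against the order by pooled signal with the nearest protein-coding gene (vertical axis). Every point is above 1, the dashed line, and replicate 1 is lowest for sp3, at 2.86. The peaks were chosen by signal pooled from the same replicates, which favours points above 1.

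Intergenic peaks were densest close to start sites, beyond the 500 bp that the rule removed. The sequence in which a summit would have been a member came to 33.3 Mb, which gives 14.4 members per Mb. The density was 31.9 per Mb between 0.5 and 1 kb from a TSS, 28.8 from 1 to 2 kb, 18.3 from 2 to 5 kb, 12.8 from 5 to 10 kb, 14.7 from 10 to 20 kb and 2.96 beyond 20 kb. The replicates' own lists gave 34.3 ± 1.26 per Mb in the nearest bin and 2.96 ± 0.603 in the farthest (SD, n = 3). These ranges did not overlap, while the 5 to 10 and 10 to 20 kb bins did, at 13.5 ± 2.60 and 15.7 ± 2.51. Signal did not follow this order: the median pooled signal was 156 in the nearest bin and 160 from 10 to 20 kb. The sequence beyond 20 kb makes up 26.4% of the admitted sequence and held 26 members, and how well short reads can be placed there was not tested.

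**Figure D2:**
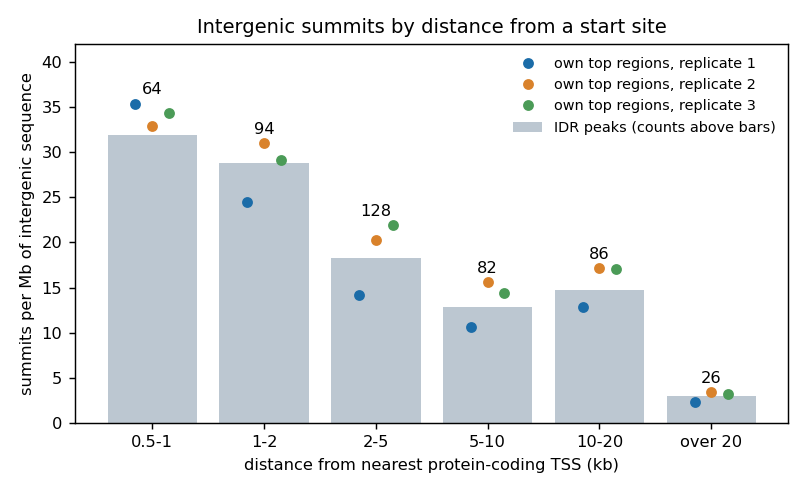
Intergenic summits per Mb of admitted sequence (vertical axis) by distance from the nearest protein-coding TSS (horizontal axis, kb). Bars are IDR peaks with their counts above, and points are the 4060 strongest regions of each replicate, which all fall from at least 32.9 per Mb in the nearest bin to at most 3.42 beyond 20 kb.

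The median member lay 3912 bp from the nearest protein-coding TSS and 1286 bp from the nearest gene of any kind. Beyond 5 kb from a TSS lay 194 members and beyond 10 kb 112. Of all members, 301 were upstream of the nearest TSS and 179 downstream. The 5 farthest from any gene were on 3L, with 3 in the gap beside CG43245, up to 36610 bp from a gene, 1 beyond *vvl* (28980 bp) and 1 beyond *Aps* (27646 bp). The strongest of these, at chr3L:10739917-10740069, had a pooled signal of 593 and ranked 153, 149 and 167 in the replicates. At the other end, the members closest to the limit were 504 bp from CG14853 (signal 148), 507 bp from *tnc* (113), and 514 bp from CG5973 (211), *Boot* (636) and *Fatp3* (137). Just outside it, at 487 to 500 bp, were peaks of CG17896 (592), CG43066 (138), *Mkp3* (264), CG13894 (117) and CG9706 (124).

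Starts of noncoding genes were near a part of the members. Within 500 bp of one lay 42 members, or 8.75%, while 2.33% of the admitted sequence lies that close. In 38 cases the nearest noncoding gene was of the ncRNA biotype. The median pooled signal was 157 with such a start and 155 without. Between divergently oriented neighbours of any biotype lay 26.9% of members (27.0 ± 0.510 in the replicates' own lists, SD, n = 3) and 22.4% of admitted sequence. The shares were 52.1% and 52.4% for neighbours in tandem, and 21.0% and 23.7% for convergent ones.

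Density differed between chromosome arms. Among the 5 large arms it was highest on 3L (154 members, 18.6 per Mb) and 2L (109, 17.4 per Mb), and lower on 2R (12.7), 3R (11.2) and X (49 members, 10.1 per Mb). In the replicates the values were 18.7 ± 2.73 on 3L and 10.8 ± 2.34 on X (SD, n = 3), and in each replicate 3L was above X. On these 5 arms all IDR peaks together ran from 29.5 per Mb of the whole arm on X to 31.8 on 2L and 3L. The small chromosome 4 held 4 members in 0.111 Mb, or 35.9 per Mb, and it was above 3L in each replicate, at 26.9, 44.9 and 26.9. These values rest on few regions. Of all classes it held 12 IDR peaks, or 8.90 per Mb of the whole arm, below the 5 large arms.

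Several gaps between genes held rows of peaks. Members fell in 317 of the gaps between neighbouring protein-coding genes. Of these gaps 89 held 2 or more, with 252 peaks, and 16 held 4 or more, with 90 peaks. The count is one of IDR peaks: 93 members had another IDR summit within 1000 bp, and 59, 57 and 57 members shared their matching region in replicates 1, 2 and 3 with another IDR peak. In all there were 3590 gaps over 1000 bp, with a median length of 4273 bp, while the median member lay in a gap of 16094 bp. Long gaps can hold more peaks, and whether peaks gather beyond gap length was not tested. The gap from CG6168 to CG6163 on 3L held the most, 8 peaks over 30.3 kb of a 40.3 kb gap, with 348 as the highest pooled signal. Gaps with 7 peaks lay between *RFeSP* and *chinmo*, *mtSSB* and *tara*, CG44362 and CG7560, *scyl* and *Dyro*, and *Ids* and *sty*. Here *scyl* is an inhibitor of growth signalling under low oxygen and *sty* (sprouty) an inhibitor of receptor tyrosine kinases. Gaps with 6 included those between *NijA* and CG43245 and between *noc* and CG33648. By nearest gene CG43245 led with 8 members, all 8 found in every replicate, with pooled signals from 127 to 593. The growth regulator gene *Myc* was nearest to 4, all of them in the gap beside *dnc* at 12407 to 17736 bp from its TSS.

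The loci of *Psc*, *chinmo* and *tara* show such rows beside the other classes of peak. Upstream of *chinmo*, 7 members lay between 1710 and 22894 bp from the TSS. Their pooled signals, from the farthest to the nearest, were 120, 431, 111, 942, 723, 284 and 196, with the highest at 12473 bp. An intron peak downstream had a signal of 111. Upstream of *tara*, a trithorax group gene, 4 members lay within 3786 bp of the TSS with signals of 468, 307, 478 and 588. All 4 overlapped a top region in every replicate. In replicates 1 and 3 the peak of 307 had the same values as that of 468, so its matches there are not its own. Another 3 lay farther out with 113, 198 and 188. Intron peaks of *tara* reached 592, about the level of the strongest intergenic one.

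Around *Psc* and *Su(z)2* nearly all peaks were intergenic. Along 87.5 kb of 2R, 8 members had signals from 127 to 1040, 4 of them from 499 upward, and the single intron peak had 178.

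**Figure D3:**
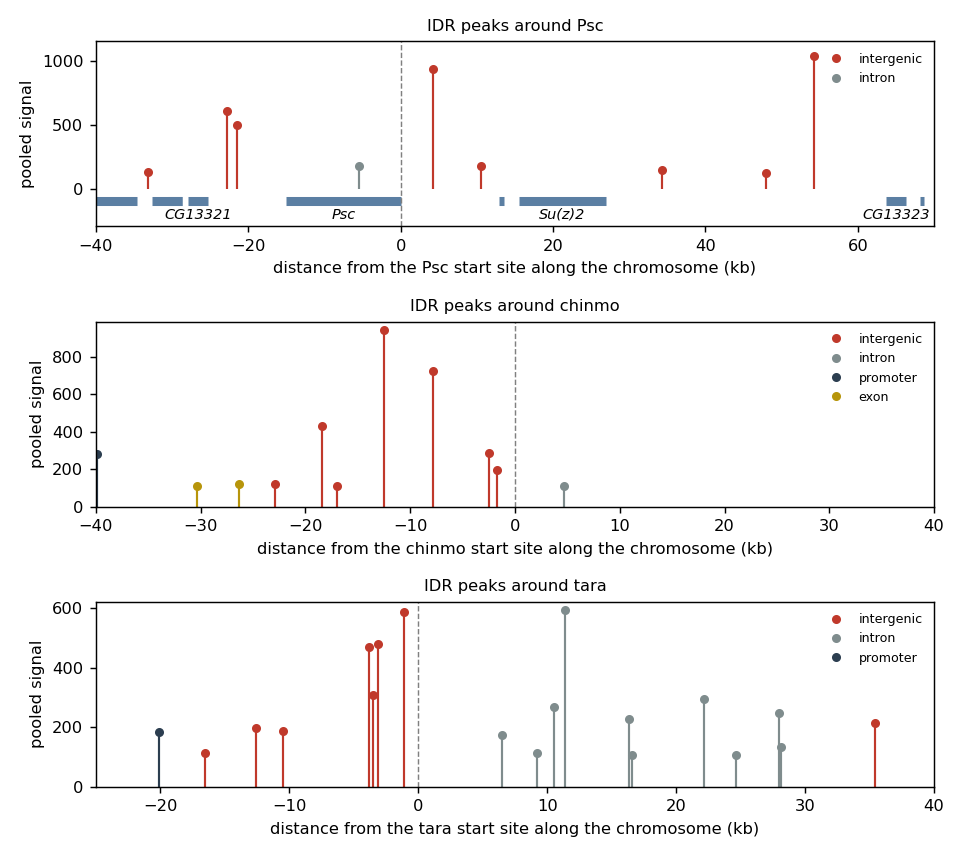
Pooled signal of IDR peaks (vertical axis) by distance from the start sites of Psc, chinmo and tara along the chromosome (horizontal axes, kb), coloured by class, with protein-coding genes as blue bars in the top panel. Psc is on the minus strand, so its body lies to the left of 0, and the intergenic peaks of 936 and 1040 stand to its right.

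Genes of the Polycomb and trithorax groups were counted after these values had been seen, so the count is a description only. Of 34 such genes, 5 were the nearest gene of a member: *tara*, *RYBP*, *ph-d*, *Psc* and *Su(z)2*. They had 12 members, or 75.5 per Mb of the admitted sequence nearest to the 34 genes, beside 14.4 per Mb over all genes. *RYBP*, which encodes a partner of Polycomb complexes, had 4, with signals of 106, 117, 154 and 173, so 2 lay below the lower quartile of the members and 2 around their median. The second *ph-d* peak had the widest spread of ranks of all members, 107, 111 and 2157. In replicates 1 and 2 it matched the same region as its neighbour of signal 623, so those ranks are not its own.

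In most lists of developmental genes a larger share than of all genes was nearest to a member, and these genes also have more intergenic sequence around them. No test was made over the lists. Of all 13945 protein-coding genes, 350 were nearest to a member, or 2.51%. In all 14 gene lists, which include ribosomal, chemosensory and cuticle genes, 42 of 662 distinct genes were. Because long gaps gather more peaks, each count is given with the members per Mb of admitted sequence nearest to the list. Homeobox genes outside the Hox clusters had 11 of 71 genes (15.5%) and 15.5 members per Mb, beside the overall 14.4. Examples were *tup* (pooled signals 213 and 123), *ems* (202 and 147), *vvl* (193 and 143) and *eyg* (233). Segmentation genes had 5 of 29 and 17.5 per Mb, among them *ems*, *slp2* (413), the Hedgehog receptor gene *ptc* (249) and *slp1* (227). None of 8 Hox genes was nearest to a member, but 2 members nearest to *Glut3* lay in the gap between it and the Hox gene *abd-A*. Hox genes had a mean of 8.78 kb of admitted sequence each, and for so short a list a count of 0 says little.

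Higher densities came with short lists and few peaks. Dorsoventral genes had 3 of 23 genes with 5 peaks (43.8 per Mb), made up of the T-box genes *Doc1* (184) and *Doc2* (242 and 143) and of *tup*. Mesoderm and muscle genes had 5 of 32 with 6 peaks (40.2 per Mb), led by *bin* (590). Genes of the Wnt, Hedgehog and TGF-beta pathways had 4 of 36 with 5 peaks (39.5 per Mb), at *fz* (221 and 117), *ptc* (249), *wg* (162) and *Wnt4* (139). Enhancer of split and Bearded family genes had 3 of 15 with 3 peaks (69.6 per Mb), at *E(spl)malpha-BFM* (252), *BobA* (196) and *E(spl)m3-HLH* (160). HMG-box genes had 3 of 21 (28.9 per Mb), the Sox genes *D* (190), *SoxN* (157) and *Sox21a* (127). At *SoxN* the ranks were 7180, 1293 and 1863, so replicate 1 lacked this peak among its strongest regions.

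Neural genes had 3 of 31 (16.3 per Mb), with *pros* (108) beside *D* and *SoxN*, and Notch and EGF pathway genes 3 of 22 (24.6 per Mb), at *aop* (241), *pnt* (195) and *Ser* (107). Ecdysone genes had 1 of 21 (21.8 per Mb), *Eip93F* (107). Below the overall density were the cytoplasmic ribosomal protein genes, with 1 of 92, *RpS23* (137), at 3.56 per Mb. So were the chemosensory receptor genes, with 4 of 179 at 8.69 per Mb and *Gr93d* (265) the strongest. The Hox list, with no member, is too short to place. Cuticle genes were close to the overall density, with 3 of 118 at 15.3 per Mb and *Cpr76Ba* (338) the strongest. The lists overlap, and *tup* stands in 3 of them.

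The centre of an intergenic peak was poor in G and C. The median GC content within 100 bp of the summit was 34.3% (quartiles 30.3 and 39.3), while 156911 abutting windows of the same length in admitted sequence had 41.3%, and 85.0% of members lay below that value. The replicates' own intergenic regions had 35.2% ± 0.287 (SD, n = 3), and intergenic candidates outside the IDR set 40.3%. Intron and promoter peaks had close values, at 34.3% and 33.3%. Around intergenic summits the GC content was 33.0% at its lowest, rose to 44.7% within 600 bp and lay between 39.9% and 41.7% beyond 700 bp. In the plot of GC content intron peaks followed the same course, whereas promoter peaks stayed high farther out. The share of soft-masked bases, which are low-complexity or repeated, was 22.8% in members and 23.3% in admitted windows. GC content can itself change enrichment in sequencing, and its part in these values was not tested.

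**Figure D4:**
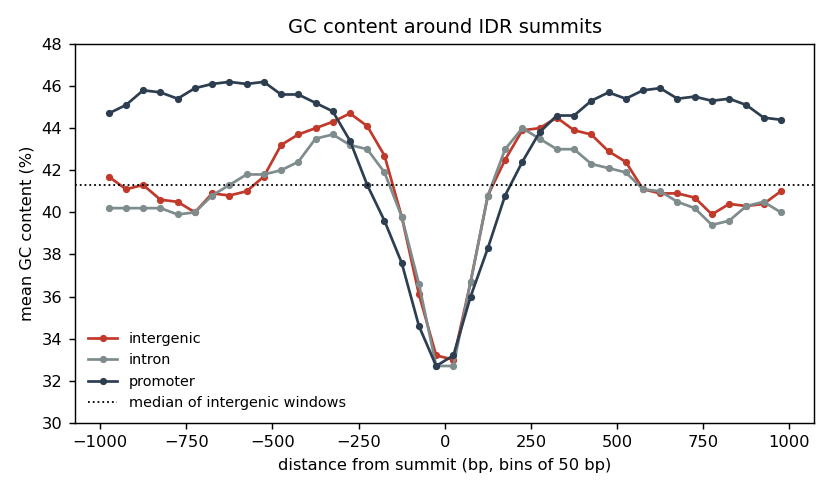
Mean GC content (vertical axis, percent) in bins of 50 bp by distance from the summit (horizontal axis, bp) for intergenic, intron and promoter peaks. The intergenic line falls to 33.0% at the summit and peaks at 44.7% on its flank, and the dotted line is the median of admitted intergenic windows, 41.3%.

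The HMG-box words AACAAT and ACAAT were about as frequent as in intergenic windows of like base composition. AACAAT was in 24.0% of members, in 21.1% of admitted windows and in 25.9% of those with GC content in the members' quartile range. The shorter ACAAT was in 50.4%, 46.2% and 53.3%, CATTGT in 10%, 12.9% and 12.6%, and the TCF word CTTTGAT in 3.54%, 3.86% and 4.39%. The share for CTTTGAT rests on 17 members, and it was 1.49% in the strongest 2030 IDR peaks, 1.90% without replicate 2 and 1.55% without replicate 3. In the replicates' own lists AACAAT was in 22.7% ± 0.829 (SD, n = 3). The GAGA factor word GAGAG was in 20.4% of members, 20.6% of admitted windows and 17.1% of those with like GC content. The longer GAGAGAG was in 2.50%, 2.15% and 1.43%, and its share rests on 12 members. E-box words, many of them read by basic helix-loop-helix proteins, lay closer to the windows of like GC content than to all admitted windows. In the same order CACCTG was in 3.54%, 6.17% and 4.38%, and CAGCTG in 4.38%, 7.14% and 4.44%. CATATG was in 6.67%, 5.84% and 6.39%. All words were searched on both strands within 100 bp of the summit.

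Of 31 words searched, 2 differed from all admitted windows, whatever their GC content, by a factor of 2 or more. AGGAC, the core of the Tramtrack word, was in 9.79% of members against 21.4%, and against 14.9% of windows of like GC content. The other classes were low as well, with 7.38% of intron, 7.65% of promoter and 9.92% of exon peaks. GGTCACAC, a core promoter word known as Motif 1, was in 3 members (0.625%) against 0.263%. Its Wilson interval, 0.213 to 1.82, holds the admitted share, and without replicate 2 the share was 0.949%. Words of housekeeping promoters set the classes apart. These were chosen after their values were seen: the DREF word TATCGATA was in 0.417% of intergenic, 0.213% of intron and 6.62% of promoter windows, and the CGATA core of BEAF in 19.8%, 19.9% and 34.5%. TATAAA, likewise chosen afterwards, was in 37.3% of members, 22.7% of admitted windows and 32.2% of those with like GC content. It was not particular to members, since 37.7% of intron peaks held it and promoter peaks had a higher share than either. Exon peaks were lower, at 26.7%.

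A scan of all 7-base words, made after the values above were known, led to the word printed beside the sequences above. Among 797 words found in at least 5% of members, CAGTGTA had the highest ratio to admitted windows, at 10.2% against 1.85%. The median ratio over the 797 words was 1.43. Of the 10 leading words, 6 contained CAGTG on either strand. Written as CAGTGNA, with any base at N, the word was in 123 members, or 25.6% (Wilson interval 21.9 to 29.7), against 9.91% of admitted windows and 9.50% of those with like GC content. Since the word was picked for its frequency in these peaks, this ratio carries no test. The replicates' own intergenic regions had 21.8%, 26.1% and 30%, a mean of 26.0 ± 4.10 (SD, n = 3).

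The word was about as frequent in introns and less so at promoters, with 23.8% of intron and 12.9% of promoter peaks. Intergenic candidates outside the IDR set had 15.1%. By pooled rank the share among intergenic regions went from 26.7% in ranks 1 to 2030 and 24.8% in ranks 2031 to 4060 down to 21.6%, 15.8% and 12.7% in the following rank bins. Among members it did not go with signal, since the median pooled signal was 155 with the word and 155 without.

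The bases before the word were rich in C and T. Of the 133 sites in members, 65 (48.9%) followed 10 bases of which at least 8 were C or T, against 13.3% of sites in admitted windows, 35.9% in intron and 20.9% in promoter peaks. T alone made up 51.7% of these bases in members and 31.6% in admitted windows. The full form was in 61 members, or 12.7%, against 8.87% of intron peaks, 2.75% of promoter peaks and 1.33% of admitted windows. Intergenic candidates outside the IDR set had 4.97%. The form was read from these same peaks, and windows of like GC content were not counted for it, so these shares carry no test. In the replicates' own lists it was in 12.2% ± 1.86 (SD, n = 3).

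The word was most frequent beside the summit, and it pointed outward. In bins of 100 bp, members had 15 and 14.2 sites per 100 peaks just left and right of the summit and 14 and 9.17 in the next bins, while admitted sequence had 5.28 per 100 windows of 100 bp. In bins of 25 bp, both strands together, members had 10 and 8 sites in the bins that touch the summit and 28 from 50 to 75 bp to the right. Within 50 bp of the summit the share was 8.33%, beside 4.96% of admitted windows of that length. Of 213 sites within 150 bp, 160 had CAGTG facing away from the summit, or 75.1% (Wilson interval 68.9 to 80.4, counting error only). Orientation was not used to choose the word or the peaks. The share was 73.8% ± 2.45 (SD, n = 3) in the replicates' own regions, 65.8% (61.8 to 69.6) in intron peaks, which are other peaks of the same libraries, 58.4% (53.9 to 62.8) in promoter peaks and 61.7% in intergenic candidates outside the IDR set. From 150 to 300 bp it was 65.6% of 93 sites in members.

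**Figure D5:**
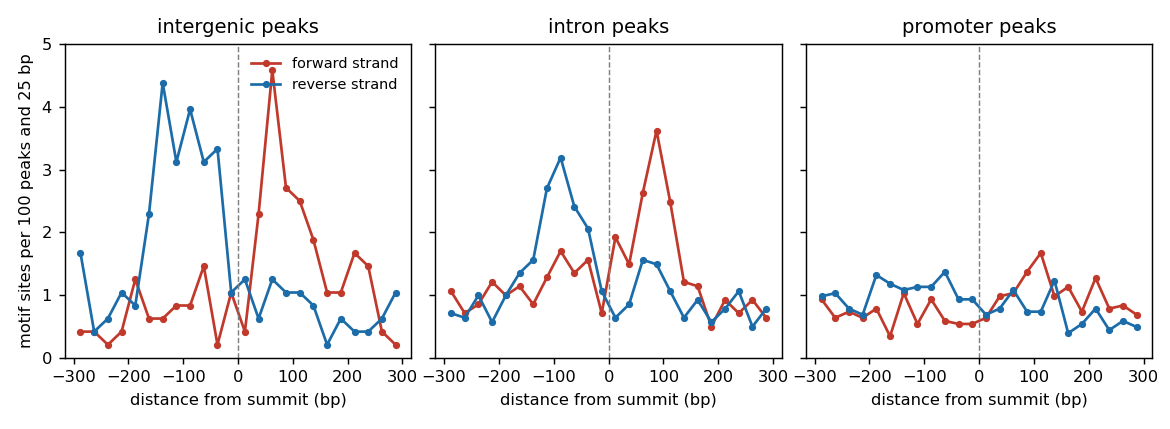
Sites of CAGTGNA per 100 peaks and 25 bp (vertical axes) by distance from the summit (horizontal axes, bp), with the word on the forward strand in red and on the reverse strand in blue. In intergenic and intron peaks the forward sites stand to the right and the reverse sites to the left of the summit, and promoter peaks show lower lines.

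Of the 4 bases that can precede CAGTG, A stood apart in direction. TCAGTG faced outward at 79.9% of 149 sites within 150 bp of members' summits and 74.0% of 362 in intron peaks. CCAGTG did so at 74.0% of 77 sites in members and GCAGTG at 65.2% of 89. ACAGTG faced outward at only 28.8% of 118 sites in members and 30% of 446 in introns, so it mostly faced the summit. This word was in 14.2% of members and 6.93% of admitted windows. It was not particular to members, since 16.5% of promoter peaks held it and intron peaks had a still higher share. TCAGT is also the core of the fly initiator, an element at start sites, so its other forms were compared. TCAGTT, in 15.6% of members and 12.4% of admitted windows, faced outward at 46.2% of sites, and TCAGTC, in 4.38% and 6.12%, at 42.5%. TCAGTA was in 8.12% against 5.47% and faced outward at 58.3% of 60 sites. Among these forms the one with G thus had the highest outward share, and TCAGTA came next.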

How the data were processed

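ChIP-seq of CG12104-GFP was measured in 3 biological replicates of 0 to 24 h embryos, with chromatin sonicated to 200 to 800 bp per the labels. The authors deposited peak lists in dm6. Per the deposited text lists, each replicate list (30000 regions) and the pooled list (26959) were called against a control alignment, and the IDR set was derived from them. The sources used here name no aligner or peak caller. Each region carries a signal value and the -log10 of a q value (highest q 0.0152 in the IDR set), both deposited by the authors, with the summit as an offset in bp. The IDR set equals the 4060 pooled regions of highest signal, at least 105.9. The lists give no read counts, so depth is unknown. The dm3 lists were not used.

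Genes came from Ensembl BDGP6.54, release 115, and transposable element records (5889) counted as genes. Admitted sequence is where a summit would have been a member. Each IDR peak took the strongest overlapping region (1 bp or more) of each replicate. Peaks are not replicates, so no test was run across them. Words of A, C, G, T and N were counted within 100 bp of a summit and in abutting admitted windows, 48323 of them in the members' quartile range of GC content. Tables were computed in Python 3.11.15 (pandas 2.3.3, numpy 2.4.6, scipy 1.17.1) and plots drawn with matplotlib 3.10.9. Classification, overlap and word search were tested on simulated data. The peaks, gene lists and words were chosen with earlier results of these data known. The genes named are the neighbours of the 15 strongest members, of those farthest from genes, widest in rank spread and nearest the 500 bp limit, genes nearest to 4 or more members and up to 4 members of each list; *mtSSB*, *sty* and others that bound a gap were added. Coordinates are 1-based. One gap between genes is not reported here.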

Additional observations from a re-analysis of the deposited data

How the results depend on the processing

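The counts moved with the limits that define them. With a TSS limit of 200 bp there were 778 intergenic peaks, 22.2 per Mb, and 12.5% of intergenic candidates were in the IDR set. A limit of 1000 bp gave a ratio to intron signal of 0.996. Among the strongest 2030 IDR peaks there were 202 members, 6.07 per Mb, 3.83% of candidates, 96.5% of members in all replicates, 53.5% in tandem, 19.8% convergent and 21 list genes. An overlap of 50% gave 57.1% in all replicates. Protein-coding neighbours alone gave 32.3% divergent and 47.3% tandem, where admitted sequence had 24.0% and 49.4%. Counting either neighbouring gene gave 73 list genes in place of 42. CAGTGNA was in 8.33% of windows of 50 bp to each side, beside 4.96% of admitted windows of that length.

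To leave out each replicate in turn, the members found among the strongest regions of both others were kept. The IDR selection was not rerun, so the peaks and their pooled signal still rest on all 3 replicates. The count of members then ran from 316 (without replicate 2) to 380 (without replicate 1), the density from 9.49 to 11.4 per Mb and the list genes from 25 (without replicate 2) to 33, with 27 without replicate 3. These sets are smaller by construction. The share found in both remaining replicates ran from 65.8% to 79.2%, the highest without replicate 1. This share and the density restate the count of members, so they are not separate results. Shares between neighbours ran from 24.7% to 26.8% (divergent), 51.1% to 53.8% (tandem) and 21.5% to 22.1% (convergent). CAGTGNA stayed between 25.4% and 26.8%. For the signal ratios all peaks were kept and the mean was taken over the remaining replicates. It ran from 0.977 to 0.987 (intron) and from 0.825 to 0.933 (promoter). When transposable element records were not counted as genes, a setting chosen after seeing the data like those for CAGTGNA and for neighbours without a replicate, there were 482 members.

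No paired analysis was possible because the series holds a single group. Depth is unknown, so no interval covers it. With 3 replicates no sign test can go below 0.25.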

Other observations

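Besides the second *ph-d* peak, 4 members had the widest spread of ranks between replicates, and all 4 were near the lower end of pooled signal, at 106 to 120. The peak between CG7484 and *Crtc*, which encodes a coactivator of CREB, ranked 18586, 4871 and 1167 in replicates 1, 2 and 3. The peak between *robo2*, an axon guidance receptor gene, and CG43401 ranked 29795, 2543 and 2778. One nearest to *Dyro* ranked 2184, 4257 and 25545, and one nearest to CG44362 ranked 26433, 2692 and 5086. In 3 of these 4 replicate 1 gave the weakest rank, and at *Dyro* it was replicate 3.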
